A study of Mus musculus with 12 samples.

Results

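The comparison described here is all-trans retinoic acid (ATRA) against ethanol vehicle in wild type mouse embryonic stem cells, across all measured genes. It uses 6 of the 12 libraries of the series, namely the 3 wild type libraries of each treatment, which carry the letters D, F and G in the column names. The ATRA group is wild type cells of strain SV129 given ATRA at 1 uM for 24 h. The vehicle group is the same wild type cells given ethanol. Plates were coated with gelatin, and the medium of both groups held the cytokine LIF (leukemia inhibitory factor), which keeps mouse embryonic stem cells in the undifferentiated state. The labels name neither a cell line nor a clone, and they leave unsaid whether replicate libraries are separate cultures, so p-values measure the spread among these libraries only. The other 6 libraries, from RAR-deficient TKO cells, entered the fit to estimate the spread. They also counted in the filter that set which genes were tested, and in the alternative scalings. Libraries were made from total RNA with an Illumina TruSeq RNA kit, per the labels, and reads were single-end and 51 bp long.

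ATRA, made in the body from vitamin A, enters the nucleus and binds retinoic acid receptors, which sit on DNA with retinoid X receptors at paired copies of a hexamer and exchange corepressors for coactivators when the ligand arrives. Known direct targets include the enzymes that clear the ligand, Rarb itself and the 3' genes of the Hox clusters, which give cells a position along the head-to-tail axis. In embryonic stem cells ATRA is widely used to start exit from pluripotency.

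Levels are FPKM, that is fragments scaled to transcript length and to the number of mapped fragments, and values of the libraries are always given in the order D, F, G. Differences are taken after adding 1 FPKM and passing to log2, so the fold of a gene with a low level is understated, and "called" means an adjusted p below 0.05 in limma. In the 6 libraries 11429 to 12193 genes reached 1 FPKM. The 8 embryonic stem cell markers were all at 1 FPKM or more in both groups, with a summed level of 5052 to 6330 FPKM with ATRA and 7624 to 8933 FPKM with vehicle, and 7 of them fell. Of 8 fibroblast or feeder markers, Col1a2, Col3a1, Dcn and Postn stayed under 0.1 FPKM in every library, and the summed level was 12.6 to 16.6 FPKM with ATRA and 10.9 to 16.2 FPKM with vehicle. Within that sum Pdgfrb rose, with a mean of 7.39 FPKM with ATRA and 1.84 FPKM with vehicle, and Thy1 fell, with a mean of 5.72 FPKM with ATRA and 10.96 FPKM with vehicle. Markers of primitive endoderm summed to 28.8 to 34.7 FPKM with ATRA and 7.53 to 14.5 FPKM with vehicle, and 2 of the 7 tested, Gata6 and Sox7, rose. The trophoblast markers summed to 21.7 to 34.9 FPKM with ATRA and 20.6 to 34.0 FPKM with vehicle, and none of the 5 tested was called. Over all tested genes 11.6% rose and 5.14% fell, or 33.7% and 22% in the paired test, which takes the letters as pairs of libraries. Of the longer list of 24 fibroblast and feeder genes, 5 of 12 tested members rose and 1 fell (median log2 change 0.26). Rises and falls were 7 and 3 in the paired test, 3 and 1 with median-of-ratios scaling and 2 and 1 without ATRA library D. For blood and endothelial genes 1 of 9 tested members rose and 1 fell (median log2 change 0.02), with 2 and 3 in the paired test, 1 and 0 without ATRA library D and 1 and 0 without vehicle library G. What these markers contribute to the results below was not tested. In RNA from a whole culture, fewer cells of a type and less RNA per cell cannot be told apart.

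ATRA changed the level of 2063 of 12362 tested genes (16.7%), of which 1428 rose (11.6% of those tested) and 635 fell (5.14%). Most changes were small. A rise of at least 2-fold was called for 261 genes and a fall of at least 2-fold for 130, while 40 genes rose and 13 fell by at least 4-fold. Changes under 1.5-fold made up 611 of the rises and 298 of the falls. Genes that rose had lower starting levels, with a median of 4.003 FPKM in vehicle, than genes that fell, with a median of 21.6 FPKM, against 12.03 FPKM over all tested genes. Among changes of at least 2-fold, 190 of the 261 rises but 26 of the 130 falls started under 5 FPKM in vehicle. Part of both contrasts is fixed by the filter and the scale. A gene too low for the filter in vehicle could enter the test through its level with ATRA, and then as a rise. With 1 FPKM added, a fall of at least 2-fold needs a vehicle level of at least 1 FPKM, while a rise needs no such level. How much of the contrasts remains beyond this was not tested. The levels of all genes that rose added up to a gain of 13136.7 FPKM, and those of all genes that fell to a change of -15558.8 FPKM.

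The balance of rises and falls depended on scaling. With median-of-ratios scaling 1067 genes rose (8.63%) and 1038 fell (8.4%), so that rises were 50.7% of called genes in place of 69.2%. The median change over all tested genes was 0.05 as deposited and -0.03 with that scaling, and 1066 of the 1428 rises and 633 of the 635 falls were called in the same direction under both. Library D carried weight. Without ATRA library D 837 genes rose and 352 fell, without vehicle library D 968 rose and 344 fell, and without ATRA library G the falls numbered 413. A test that takes the letters as pairs of libraries, called the paired test below, called 4171 genes higher (33.7%) and 2716 lower (22%), including all 2063 genes above in the same direction.

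**Figure D1:**
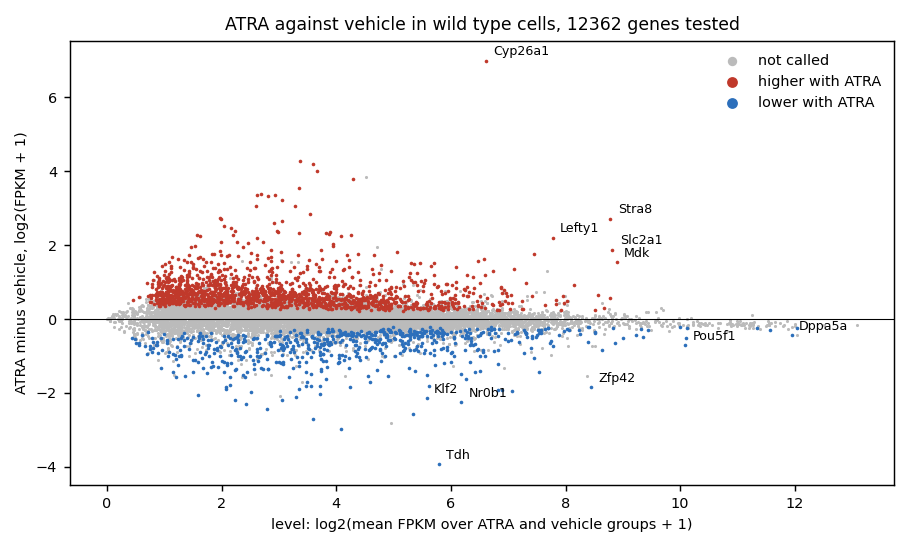
Change with ATRA (ATRA minus vehicle, log2(FPKM + 1), vertical axis) against the level of each of the 12362 tested genes (log2 of the mean FPKM over both groups plus 1, horizontal axis). Red points are the 1428 genes called higher, blue points the 635 called lower and grey points the rest. The large rises lie mostly at low levels, with Stra8, Slc2a1, Mdk and Lefty1 as abundant exceptions, and falls reach into the most abundant genes.

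Of all tested genes, 69.9% had the same direction in the 3 pairs of libraries. The called genes all did, which their selection from these same libraries nearly fixes. The median change of the called rises was 0.65 in pair D, 0.60 in pair F and 0.64 in pair G. For the called falls it was -0.67 in pair D, -0.52 in pair F and -0.67 in pair G. Across the 12362 genes, which are not independent replicates, Pearson's r between pairs was 0.767 to 0.829. The ATRA and vehicle libraries did not overlap for 2044 of the called genes, and for 34.4% of all tested genes.

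**Figure D2:**
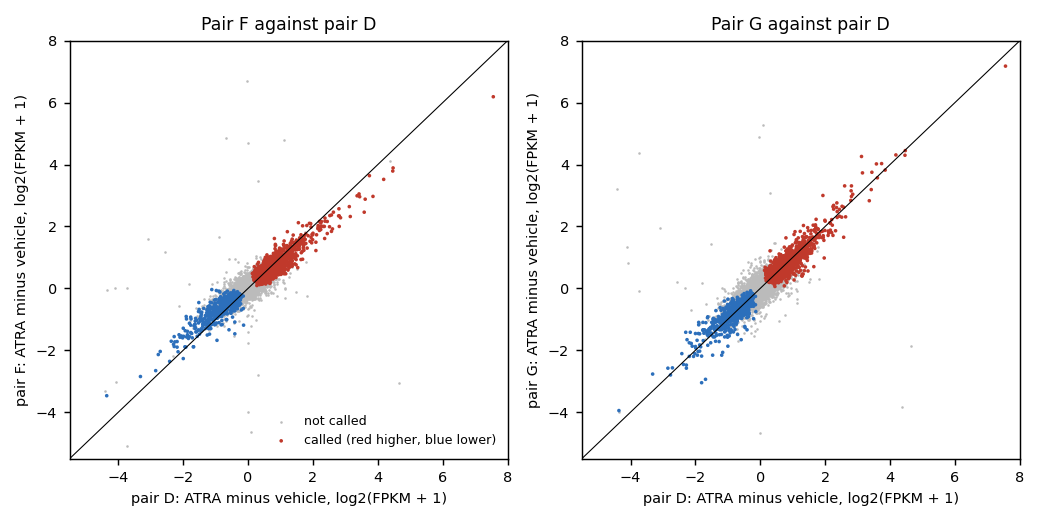
Change with ATRA in pair F (left panel) and pair G (right panel) against pair D, each in log2(FPKM + 1). Each point is 1 of the 12362 tested genes, red where called higher, blue where called lower and grey where not called, and the line marks equal change. Over all tested genes, r across genes was 0.829 for F against D and 0.810 for G against D.

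The largest rise in the transcriptome was that of Cyp26a1 (chr19:37697798-37701536), which encodes a cytochrome P450 that oxidises and clears retinoic acid. Its level was 243, 122 and 218 FPKM with ATRA, against 0.295, 0.676 and 0.507 FPKM with vehicle (log2 change 6.98 ± 0.24 SE, adjusted p = 2.31e-08). All ATRA libraries were more than 100 FPKM above all vehicle libraries, and F was the lowest of the ATRA libraries. Cyp26b1, which encodes a second enzyme of this kind, had 8.32, 6.26 and 20.9 FPKM with ATRA, against 0.0695, 0.164 and 0.137 FPKM with vehicle (log2 change 3.34 ± 0.30 SE, adjusted p = 3.18e-05), and G was the highest. Other genes of retinoid handling rose with them. Stra6 (chr9:58063788-58153996), the membrane receptor through which cells take up retinol, had 21.98, 21.1 and 25.1 FPKM with ATRA, against 0.268, 0.918 and 0.315 FPKM with vehicle (log2 change 4.0 ± 0.19 SE, adjusted p = 3.01e-07). Dhrs3 (chr4:144892827-144928209), which reduces retinaldehyde back to retinol, had 20.2, 12.3 and 20.7 FPKM with ATRA, against 0.470, 0.703 and 0.532 FPKM with vehicle (log2 change 3.55 ± 0.18 SE, adjusted p = 4.50e-07). The groups did not overlap for any of these genes, which the rule for naming them required. Of the retinoid list as a whole, 12 of 18 tested members rose and 0 fell (median log2 change 0.73), beside 11.6% and 5.14% of all tested genes. Rises and falls were 13 and 0 in the paired test and 10 and 0 with median-of-ratios scaling. They were 9 and 0 without ATRA library D or G or vehicle library F. A member that reached 1 FPKM only with ATRA could enter the test only by being higher there. A further 5 of the 23 listed genes were too low to be tested.

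Known binding sites of the retinoic acid receptor include direct repeats of the hexamer with a spacer of 5 bases (DR5) or 2 bases (DR2). Other arrangements were not searched. Promoter windows from RefSeq (GRCm38.p6, 250 bases before to 50 after the start) were searched on both strands for 2 hexamers in a row, each of the form AGGTCA, its variant AGTTCA, the form GGGTCA or the further variant GGTTCA. A window was found for 79.7% of tested genes, too few for a comparison of shares, so single genes are described. A DR5 lay in the window of 31 of 27025 promoters of all genes (0.115%), and in 5 of the 9845 tested genes with a window (0.0508%). These are printed because they show the repeat beside a response or without one, on the strand of the gene, ending at the start site at the latest, with the repeat in capitals.
Cyp26a1 (chr19:37697746-37697807, + strand): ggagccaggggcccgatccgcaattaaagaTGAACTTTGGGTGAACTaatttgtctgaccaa
Rarb (chr14:16575483-16575559, - strand): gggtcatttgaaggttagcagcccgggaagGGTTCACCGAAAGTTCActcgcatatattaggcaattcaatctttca
Ccdc19 (chr1:172520880-172520955, + strand): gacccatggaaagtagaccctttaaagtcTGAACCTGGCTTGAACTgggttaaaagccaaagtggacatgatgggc
Blvrb (chr7:27452369-27452417, + strand): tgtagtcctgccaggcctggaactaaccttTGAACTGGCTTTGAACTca
Syndig1 (chr2:149830586-149830662, + strand): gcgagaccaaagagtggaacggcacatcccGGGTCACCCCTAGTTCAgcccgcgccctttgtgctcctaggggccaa

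Cyp26a1, Ccdc19 and Blvrb carry the repeat on the opposite strand, so the capitals show its reverse complement. It begins 32 bases before the start in Cyp26a1 and 53 bases before the listed start in Rarb, a start that lies inside the interval GENCODE gives for the gene. Rarb encodes a receptor for ATRA, and its level was 7.30, 7.29 and 5.13 FPKM with ATRA, against 0.341, 0.506 and 0.235 FPKM with vehicle (log2 change 2.47 ± 0.13 SE, adjusted p = 5.03e-07). Of the other genes with a DR5, Ccdc19 fell (log2 change -0.82 ± 0.22 SE, adjusted p = 0.0279), with 0.796, 1.73 and 0.413 FPKM with ATRA and 2.90, 2.77 and 1.57 FPKM with vehicle. Blvrb, biliverdin reductase B, averaged 43.1 ± 6.65 FPKM with ATRA and 42.7 ± 6.20 FPKM with vehicle (log2 change 0.01 ± 0.19 SE, adjusted p = 0.976), and Syndig1 averaged 0.420 ± 0.254 FPKM with ATRA and 0.561 ± 0.0550 FPKM with vehicle (log2 change -0.15 ± 0.18 SE, adjusted p = 0.643). Of these 5 genes, 2 rose, 1 fell and 2 were not called. They are too few to compare with the 11.6% of all tested genes that rose and the 5.14% that fell. A DR2 lay in 84 of the 27025 windows (0.311%) and in 9 of the 9845 tested genes with a window (0.0914%). Of these 9, Tinagl1, Slc45a3 and Stap2 rose and the other 6 were not called, again too few to compare. The largest of these changes was that of Tinagl1, which encodes a secreted matrix protein and averaged 14.4 ± 1.98 FPKM with ATRA and 3.70 ± 1.05 FPKM with vehicle (log2 change 1.72 ± 0.24 SE, adjusted p = 5.85e-04).
Tinagl1 (chr4:130175186-130175259, - strand): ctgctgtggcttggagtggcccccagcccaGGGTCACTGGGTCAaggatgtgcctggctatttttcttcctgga

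Hox genes, Cdx genes and their Meis and Pbx partners were higher with ATRA almost throughout. Of these, 26 of 29 tested members rose and 0 fell (median log2 change 1.98), beside 11.6% and 5.14% of all tested genes. Of 47 genes named for this list 29 reached 1 FPKM in 3 libraries, and a gene that did so only with ATRA could enter the test only by being higher there. Hoxa5 had 25.1, 18.8 and 21.9 FPKM with ATRA, against 0.188, 0.431 and 0.157 FPKM with vehicle (log2 change 4.18 ± 0.12 SE, adjusted p = 1.49e-08). Hoxb2 had 21.2, 14.1 and 20.8 FPKM with ATRA, against 0, 0.0240 and 0 FPKM with vehicle (log2 change 4.27 ± 0.13 SE, adjusted p = 1.49e-08). Hoxb1, the 3' gene of its cluster, was listed at 0 in all vehicle libraries and had 10.9, 4.48 and 15.2 FPKM with ATRA and 0, 0 and 0 FPKM with vehicle, with F the lowest of the ATRA libraries. F was also lowest for Hoxb4, at 9.93, 5.49 and 14.4 FPKM with ATRA and 0.230, 0.300 and 0.165 FPKM with vehicle. Cdx1, a caudal homeobox gene that acts upstream of Hox genes, had 37.7, 38.1 and 30.1 FPKM with ATRA, against 1.90, 2.14 and 0.906 FPKM with vehicle (log2 change 3.80 ± 0.19 SE, adjusted p = 4.79e-07). Among the partners, Meis1 had 3.38, 3.16 and 4.24 FPKM with ATRA, against 0.479, 0.435 and 0.436 FPKM with vehicle (log2 change 1.66 ± 0.14 SE, adjusted p = 2.04e-05).

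Position along the chromosome, which the comparison did not use, is described here with no test. Of the tested genes, 11476 of 12351 with a single symbol could be placed in order. Tested genes next to each other that all rose or all fell at least 2-fold formed 26 runs, 18 of them of rises and 8 of falls. They held 55 of the 248 placed genes that rose at least 2-fold and 17 of the 122 that fell as much. A gene under 1 FPKM in vehicle, as the Hoxb genes below were, could enter a run only as a rise. Whether the runs exceed what the numbers of changed genes give was not tested. Only 6 runs held 3 or more genes. The longest, on chromosome 11, held 10 genes and ran through the Hoxb cluster from Hoxb9 to Hoxb1 and on to Skap1, an adaptor of T cell receptor signalling, which had 1.89, 2.26 and 1.36 FPKM with ATRA and 0.270, 0.434 and 0.152 FPKM with vehicle (log2 change 1.13 ± 0.16 SE, adjusted p = 5.98e-04). Another, on chromosome 6, ran through the Hoxa cluster up to Hoxa10 and included the noncoding RNA gene Mira at 9.75, 7.70 and 9.62 FPKM with ATRA and 1.34, 0.954 and 1.27 FPKM with vehicle. On chromosome 9, 4 neighbours of which Stra6 is known as a retinoic acid target rose together. Cyp11a1, the side-chain cleavage enzyme that starts steroid synthesis, had 23.3, 20.2 and 25.4 FPKM with ATRA, against 6.45, 7.18 and 7.36 FPKM with vehicle (log2 change 1.58 ± 0.16 SE, adjusted p = 7.43e-05). Islr2, a membrane protein of axon growth, had 69.1, 65.4 and 57.5 FPKM with ATRA, against 21.1, 22.6 and 21.7 FPKM with vehicle (log2 change 1.51 ± 0.17 SE, adjusted p = 1.41e-04). Its neighbour Islr had 1.86, 3.01 and 1.93 FPKM with ATRA and 0.463, 0.625 and 0.405 FPKM with vehicle. The GENCODE intervals of Islr and Islr2 overlap on the same strand, so the split of reads between them is uncertain and was not tested. The order of genes is that of RefSeq, and genes that were not tested, or were tested but not placed, can lie between neighbours.

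**Figure D3:**
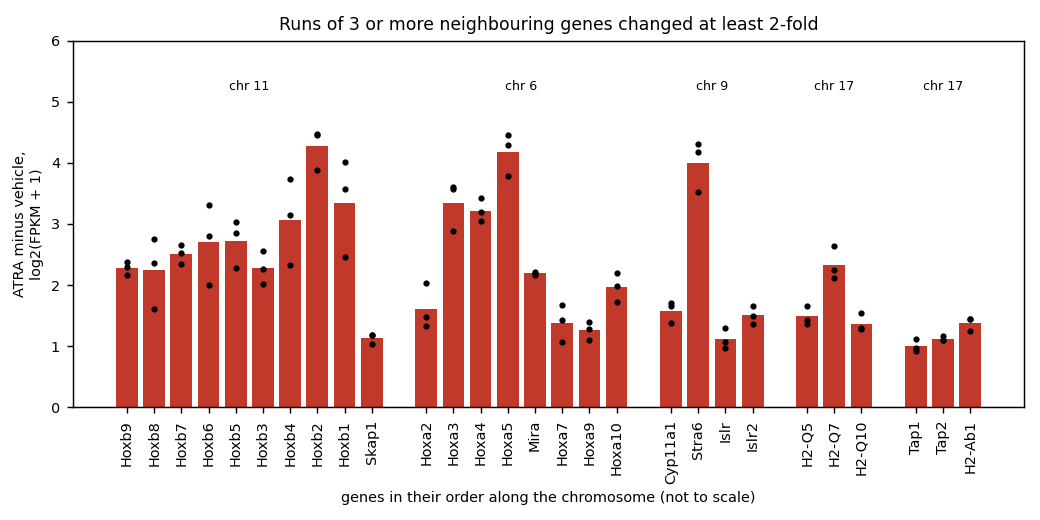
Change with ATRA (ATRA minus vehicle, log2(FPKM + 1)) of genes in runs of 3 or more neighbours that rose at least 2-fold, in chromosome order and not to scale. Red bars are the fitted changes and dots are the 3 pairs of libraries. Both Hox clusters, the Stra6 neighbourhood and 2 groups of histocompatibility genes were higher with ATRA in every pair, as were all genes called higher.

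Histocompatibility genes formed short runs. On chromosome 17 the class I genes H2-Q5, H2-Q7 and H2-Q10 rose, as did the peptide transporter genes Tap1 and Tap2 with the class II gene H2-Ab1. H2-Q7 had 23.9, 26.5 and 16.9 FPKM with ATRA, against 4.26, 5.34 and 1.86 FPKM with vehicle (log2 change 2.33 ± 0.26 SE, adjusted p = 1.63e-04), a value that is uncertain because H2-Q genes are near copies of each other and reads could be split among them. Tap1 had 4.25, 2.63 and 3.35 FPKM with ATRA and 1.42, 0.915 and 1.23 FPKM with vehicle. Tap2 had 3.63, 2.63 and 2.27 FPKM with ATRA and 1.16, 0.698 and 0.457 FPKM with vehicle. Among the runs of 2 were Fbp2 with Fbp1, which rose, and Ly6g6d with Ly6g6e and Krt17 with Krt42, which fell.

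The largest falls included genes of the undifferentiated state. Tdh (chr14:63492347-63509092), threonine dehydrogenase, which feeds glycine and acetyl-CoA to mouse embryonic stem cells, had 5.40, 6.76 and 5.07 FPKM with ATRA, against 131, 84.8 and 92.7 FPKM with vehicle (log2 change -3.93 ± 0.17 SE, adjusted p = 2.09e-07). Nr0b1, an orphan nuclear receptor of the pluripotency network, had 20.1, 36.1 and 18.7 FPKM with ATRA, against 101, 136 and 117 FPKM with vehicle (log2 change -2.25 ± 0.21 SE, adjusted p = 4.15e-05). Tcl1, a cofactor of AKT kinase, had 10.6, 16.1 and 6.56 FPKM with ATRA, against 78.1, 74.6 and 51.8 FPKM with vehicle (log2 change -2.57 ± 0.29 SE, adjusted p = 1.44e-04). Klf2, a transcription factor of the naive state, had 18.3, 26.996 and 8.58 FPKM with ATRA, against 66.7, 81.3 and 78.3 FPKM with vehicle (log2 change -2.14 ± 0.32 SE, adjusted p = 0.00102). Foxd3, a forkhead factor of the epiblast, had 0.547, 1.30 and 0.244 FPKM with ATRA, against 4.002, 7.54 and 8.54 FPKM with vehicle (log2 change -2.18 ± 0.37 SE, adjusted p = 0.00232). In ATRA libraries, F was the highest of the 3 for each of these 5 genes. Less known genes were also among the largest falls. Ly6g6e, a Ly6 family surface protein, had 2.16, 5.15 and 1.19 FPKM with ATRA, against 30.5, 43.2 and 13.9 FPKM with vehicle (log2 change -2.98 ± 0.41 SE, adjusted p = 5.97e-04). Serpinb6c, a serine protease inhibitor, had 1.84, 3.37 and 1.46 FPKM with ATRA, against 19.5, 26.6 and 13.7 FPKM with vehicle (log2 change -2.70 ± 0.28 SE, adjusted p = 8.71e-05). Enox1 had 0.916, 1.70 and 0.937 FPKM with ATRA, against 11.6, 10.1 and 10.5 FPKM with vehicle (log2 change -2.44 ± 0.13 SE, adjusted p = 5.91e-07). Slc17a9, which loads ATP into vesicles, had 2.17, 2.42 and 1.37 FPKM with ATRA, against 15.4, 10.2 and 12.1 FPKM with vehicle (log2 change -2.18 ± 0.22 SE, adjusted p = 7.65e-05). Sept1, a septin, had 48.03, 56.9 and 58.4 FPKM with ATRA, against 222, 214 and 200.4 FPKM with vehicle (log2 change -1.95 ± 0.09 SE, adjusted p = 3.01e-07). In no gene of this paragraph did an ATRA library reach the lowest vehicle library, which the rule for naming them required. Nkx6-3, Cpsf4l, Lrrc34 and Ifitm1 were among these largest falls too.

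**Figure D4:**
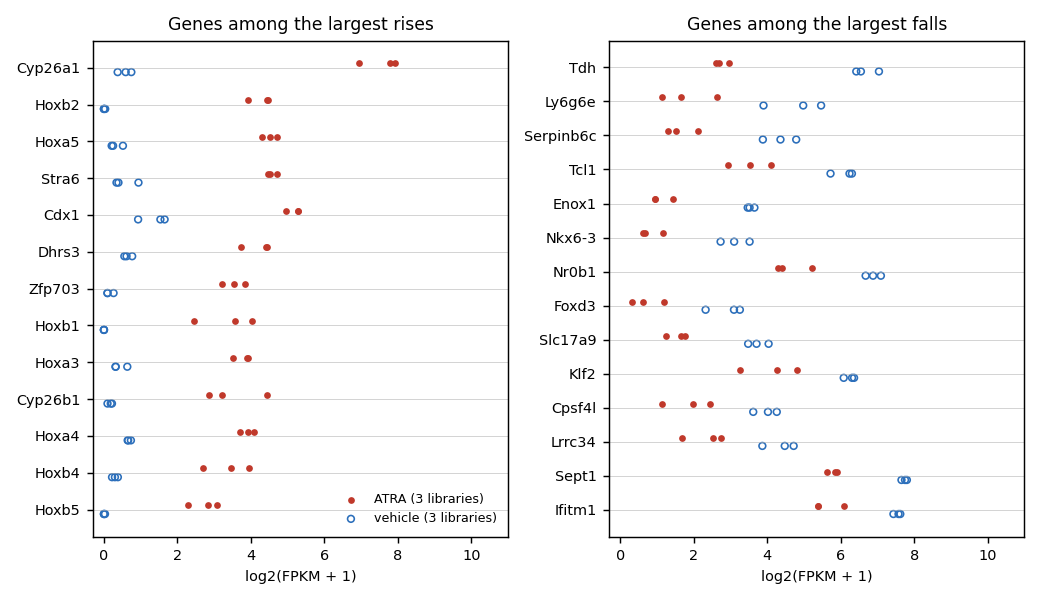
Level of genes among the largest rises (left) and the largest falls (right) in each library, in log2(FPKM + 1). Filled red circles are the 3 ATRA libraries and open blue circles the 3 vehicle libraries of each gene, with the largest change at the top. The groups do not overlap for any gene shown, which the rule for naming them required.

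Of the pluripotency list, 2 of 35 tested members rose and 23 fell (median log2 change -0.64), beside 11.6% and 5.14% of all tested genes. Zfp42 (Rex1), a marker of naive embryonic stem cells, had 127, 197 and 135 FPKM with ATRA, against 545, 591 and 498 FPKM with vehicle (log2 change -1.85 ± 0.17 SE, adjusted p = 3.97e-05). Mybl2, a cell cycle transcription factor, had 92.6, 115 and 87.9 FPKM with ATRA, against 281, 306 and 222 FPKM with vehicle (log2 change -1.44 ± 0.14 SE, adjusted p = 6.23e-05). Pou5f1 (Oct4), the core factor of pluripotency, fell less, with 808, 889 and 788 FPKM with ATRA, against 1326, 1347 and 1380.2 FPKM with vehicle (log2 change -0.71 ± 0.12 SE, adjusted p = 0.00191). The members that rose were Dppa2 and Gbx2, whose log2 changes were 0.32 and 1.02, and with median-of-ratios scaling none rose. In genes of the primed epiblast, the stage that follows the naive one, 8 of 16 tested members rose and 3 fell (median log2 change 0.48). Sox4, an HMG-box transcription factor, had 13.5, 9.27 and 13.7 FPKM with ATRA, against 2.03, 1.31 and 1.29 FPKM with vehicle (log2 change 2.37 ± 0.20 SE, adjusted p = 2.25e-05). Otx2, a regulator of the primed state and the forebrain, had 0.211, 0.698 and 0.246 FPKM with ATRA, against 2.32, 3.21 and 1.43 FPKM with vehicle (log2 change -1.24 ± 0.19 SE, adjusted p = 0.00105).

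By amount of RNA the picture was different from that by fold. The largest gains in mean FPKM were those of Stra8, Slc2a1, Mdk, Lefty1, Cyp26a1, Cotl1, Glud1, Upp1, Dusp9 and Aes. Stra8, which licenses entry into meiosis in germ cells, had 727, 845 and 707 FPKM with ATRA, against 103, 166 and 89.5 FPKM with vehicle (log2 change 2.71 ± 0.23 SE, adjusted p = 2.04e-05). Slc2a1 (chr4:119108711-119137983), the glucose transporter GLUT1, had 656, 481 and 987 FPKM with ATRA, against 151, 144 and 284 FPKM with vehicle (log2 change 1.88 ± 0.39 SE, adjusted p = 0.00731), with G highest in both groups. Every ATRA library was above every vehicle library for both genes, which the rule for naming them required. Mdk (midkine), a heparin-binding growth factor, had 712, 735 and 667 FPKM with ATRA, against 247, 274 and 214 FPKM with vehicle (log2 change 1.53 ± 0.12 SE, adjusted p = 1.07e-05). Lefty1, a secreted inhibitor of Nodal, had 432, 408 and 241 FPKM with ATRA, against 71.99, 78.1 and 76.2 FPKM with vehicle (log2 change 2.20 ± 0.42 SE, adjusted p = 0.00449), with G the lowest of the ATRA libraries. Cotl1, an actin-binding protein, had 277, 227 and 299.95 FPKM with ATRA, against 84.8, 77.2 and 71.5 FPKM with vehicle (log2 change 1.76 ± 0.20 SE, adjusted p = 1.49e-04). Glud1, mitochondrial glutamate dehydrogenase, had 407, 363 and 341 FPKM with ATRA, against 193, 207 and 184 FPKM with vehicle (log2 change 0.92 ± 0.08 SE, adjusted p = 2.04e-05). Dusp9, a phosphatase that switches off ERK kinase, had 203, 183 and 199 FPKM with ATRA, against 69.7, 68.999 and 90.1 FPKM with vehicle (log2 change 1.35 ± 0.14 SE, adjusted p = 1.03e-04).

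Among genes called with both scalings and with no overlap between groups, leaving out predicted genes, small RNA genes and repeated symbols, the 10 largest losses in mean FPKM were those of Dppa5a, Gapdh, Npm1, Pou5f1, Rpl8, Zfp42, H2afz, Slc25a5, Ifitm2 and Eef1g. Zfp42 and Pou5f1 are described above. Dppa5a, a marker of embryonic stem cells, had 3452, 3564 and 3044 FPKM with ATRA, against 4557, 5006 and 4134 FPKM with vehicle (log2 change -0.44 ± 0.08 SE, adjusted p = 0.00240). H2afz, the histone variant H2A.Z, had 772, 1002 and 938 FPKM with ATRA, against 1239, 1388 and 1222 FPKM with vehicle (log2 change -0.51 ± 0.10 SE, adjusted p = 0.00408). Ifitm2, an interferon-induced membrane protein, had 351, 356 and 375 FPKM with ATRA, against 555, 553 and 603 FPKM with vehicle (log2 change -0.66 ± 0.06 SE, adjusted p = 4.06e-05). Npm1 (nucleophosmin), a nucleolar chaperone, had 2627, 2688 and 2771 FPKM with ATRA, against 3407, 3237 and 3388 FPKM with vehicle (log2 change -0.31 ± 0.06 SE, adjusted p = 0.00309), a call that was lost with quantile scaling. Gapdh, a glycolytic enzyme often used as a reference, had 3682, 3924 and 3902 FPKM with ATRA and 4681, 4510. and 4525 FPKM with vehicle (log2 change -0.25 ± 0.06 SE, adjusted p = 0.0112). Rpl8 had 2321, 2511 and 2314 FPKM with ATRA and 2788, 3032 and 2611 FPKM with vehicle (log2 change -0.24 ± 0.06 SE, adjusted p = 0.0243). Slc25a5, the ADP/ATP carrier, had 571, 458 and 618 FPKM with ATRA and 786, 672 and 829 FPKM with vehicle (log2 change -0.48 ± 0.13 SE, adjusted p = 0.0254). The calls of these last 3 genes were not stable. With quantile scaling Gapdh had a log2 change of -0.03 (adjusted p = 0.832) and Rpl8 one of -0.06 (adjusted p = 0.492). The call of Gapdh was also lost without the D library of either group (adjusted p 0.0516 to 0.0532). That of Rpl8 was lost with wild type libraries only (adjusted p = 0.107), with no trend and no robust settings (adjusted p = 0.0690), and without library D of either group, ATRA library G or vehicle library F (adjusted p 0.0664 to 0.0901). That of Slc25a5 was lost with wild type libraries only (adjusted p = 0.0606) and without ATRA library D or F or vehicle library D or G (adjusted p 0.0590 to 0.0856). Eef1g averaged 1021 FPKM with ATRA and 1209 FPKM with vehicle (log2 change -0.24 ± 0.06 SE, adjusted p = 0.0114). Its call too was lost with quantile scaling (log2 change -0.07, adjusted p = 0.438) and with wild type libraries only (adjusted p = 0.0643).

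Genes with a mean under 0.5 FPKM in 1 group and at least 2 FPKM in the other were counted as switched on or off, with no test. ATRA switched on 39 genes and switched off 15. Of the 39, 36 remained when predicted genes, small RNA genes and repeated symbols were left out, and 16 of the 36 were in the retinoid or Hox lists. Among the other 20, Zfp703, a zinc finger corepressor, had 10.6, 8.33 and 13.3 FPKM with ATRA and 0.0692, 0.199 and 0.0687 FPKM with vehicle. Krt20, a keratin of intestinal epithelium, had 2.50, 2.09 and 2.48 FPKM with ATRA and 0.0356, 0.0315 and 0.0446 FPKM with vehicle. Foxa1, a pioneer factor of endoderm, had 3.21, 2.17 and 2.13 FPKM with ATRA and 0.405, 0.324 and 0.185 FPKM with vehicle. Zeb2, a repressor of epithelial genes, had 2.32, 2.10 and 1.75 FPKM with ATRA and 0.319, 0.238 and 0.234 FPKM with vehicle. Nt5e, the ectonucleotidase CD73, had 3.01, 1.47 and 5.04 FPKM with ATRA and 0.292, 0.298 and 0.471 FPKM with vehicle, with F the lowest. Gfra3, a receptor for a GDNF family ligand, had 3.03, 3.45 and 2.33 FPKM with ATRA and 0.282, 0.451 and 0.318 FPKM with vehicle. Wfdc1, a secreted protein with a WAP domain, had 3.53, 2.56 and 3.39 FPKM with ATRA and 0.386, 0.232 and 0.107 FPKM with vehicle. Figla, a factor of oocytes, had 1.80, 3.86 and 1.14 FPKM with ATRA and 0.604, 0.591 and 0.251 FPKM with vehicle. Apart from predicted genes, small RNA genes and repeated symbols, 5 genes were switched off. With limits of 0.25 and 1 FPKM in place of 0.5 and 2 FPKM, 44 such genes were switched on and 10 switched off. Klk1, tissue kallikrein, had 0.244, 0.111 and 0.126 FPKM with ATRA, against 3.97, 4.37 and 3.14 FPKM with vehicle, and Scgb3a1, a secretoglobin, had 0, 0.148 and 0.336 FPKM with ATRA and 2.21, 3.26 and 1.88 FPKM with vehicle. Ntn1, the guidance cue netrin 1, had 0.310, 0.217 and 0.241 FPKM with ATRA and 4.78, 0.797 and 1.02 FPKM with vehicle and was not called (adjusted p = 0.107), though the paired test called it (adjusted p = 0.0311). Vehicle library D stood far above the other vehicle libraries. The remaining ones were Otx2 and Vax2os. Among the genes named here, Nt5e, Wfdc1, Gfra3, Figla and Zeb2 are examples chosen after their values were seen.

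Beyond the retinoid, Hox and pluripotency genes, lists of genes that share a pathway or function are described by how many members were called, beside the 11.6% of all tested genes that rose and the 5.14% that fell in the unpaired test, and the 33.7% and 22% in the paired test. No list was tested as such, and members too low for the test are not counted, so a gene present only with ATRA enters a list as a possible rise only. The pair of numbers after a list gives its rises and its falls under the test or scaling named. The ATRA and vehicle libraries did not overlap for any gene given with its 3 values in each group below. For called genes, their selection from these same libraries nearly fixes this.

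**Figure D5:**
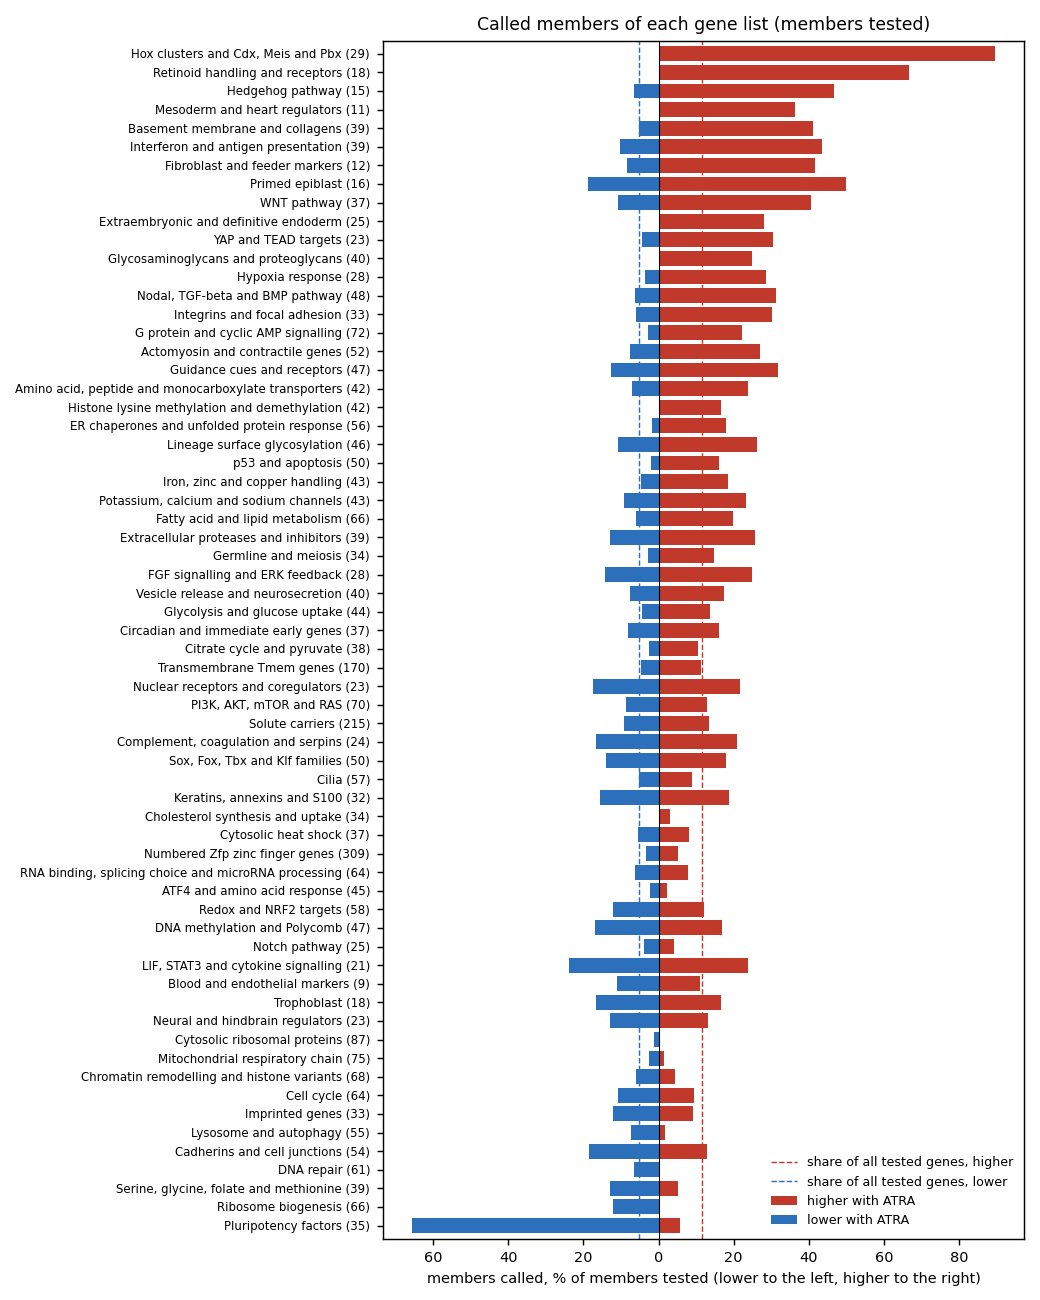
Share of the tested members of each gene list that were called higher with ATRA (red bars, to the right) or lower (blue bars, to the left), in % of members tested, with the number tested in brackets, for lists with at least 5 tested members. Dashed lines mark the share of all tested genes called higher (11.6%) and lower (5.14%). Lists of Hox, retinoid, Hedgehog, matrix and antigen presentation genes have shares of rises past the red line, and the pluripotency list reaches farthest to the left.

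Secreted signals and their receptors changed in many places. In the WNT pathway, in which secreted lipid-modified ligands act on Frizzled receptors, 15 of 37 tested members rose and 4 fell (median log2 change 0.35). Counts were 25 and 4 in the paired test and 9 and 3 without vehicle library D. Wnt5b, a ligand, had 4.02, 4.07 and 3.60 FPKM with ATRA, against 0.646, 0.871 and 0.530 FPKM with vehicle (log2 change 1.55 ± 0.11 SE, adjusted p = 4.86e-06). The secreted WNT antagonists went opposite ways, with 6.24, 4.42 and 5.59 FPKM with ATRA and 1.59, 0.905 and 1.81 FPKM with vehicle for Sfrp2 (log2 change 1.41 ± 0.16 SE, adjusted p = 1.77e-04) and 13.7, 12.3 and 11.7 FPKM with ATRA and 28.9, 25.01 and 24.3 FPKM with vehicle for Sfrp1 (log2 change -1.0 ± 0.10 SE, adjusted p = 7.94e-05). The receptor gene Fzd5 had 14.5, 15.9 and 12.01 FPKM with ATRA, against 24.5, 26.1 and 26.1 FPKM with vehicle (log2 change -0.82 ± 0.10 SE, adjusted p = 1.90e-04). In the Nodal, TGF-beta and BMP pathway, 15 of 48 tested members rose and 3 fell (median log2 change 0.25), with 29 and 10 in the paired test. The SMAD corepressors Skil and Ski both rose. Skil had 60.8, 39.6 and 52.7 FPKM with ATRA, against 14.6, 12.7 and 13.7 FPKM with vehicle (log2 change 1.81 ± 0.15 SE, adjusted p = 1.56e-05). Ski had 113, 99.7 and 81.1 FPKM with ATRA, against 37.3, 34.4 and 36.4 FPKM with vehicle (log2 change 1.41 ± 0.12 SE, adjusted p = 2.04e-05). Nodal, the ligand of the primed epiblast, had 45.4, 39.7 and 43.9 FPKM with ATRA, against 23.7, 25.7 and 21.98 FPKM with vehicle (log2 change 0.83 ± 0.12 SE, adjusted p = 0.00106). Tgif1, a homeobox corepressor of SMAD, had 64.5, 71.1 and 59.3 FPKM with ATRA, against 127, 127 and 109 FPKM with vehicle (log2 change -0.89 ± 0.12 SE, adjusted p = 5.63e-04).

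Of Hedgehog pathway genes, 7 of 15 tested members rose and 1 fell (median log2 change 0.40). Counts varied, with 11 and 2 in the paired test, with 4 to 5 called in all when ATRA library D or G or vehicle library F or G was left out. The coreceptor genes Gas1 and Cdon rose. Gas1 had 3.75, 3.09 and 3.23 FPKM with ATRA, against 0.815, 0.678 and 0.813 FPKM with vehicle (log2 change 1.30 ± 0.13 SE, adjusted p = 8.71e-05). Cdon had 7.79, 6.29 and 7.75 FPKM with ATRA, against 3.77, 3.09 and 4.11 FPKM with vehicle (log2 change 0.83 ± 0.13 SE, adjusted p = 0.00114). Gli2, a transcription factor of the pathway, had 5.90, 5.27 and 4.88 FPKM with ATRA, against 12.4, 9.37 and 10.9 FPKM with vehicle (log2 change -0.90 ± 0.15 SE, adjusted p = 0.00204). Among YAP and TEAD genes, which respond to cell shape and contact, 7 of 23 tested members rose and 1 fell (median log2 change 0.31), with 17 and 3 in the paired test. The target gene Ctgf had 7.11, 5.80 and 7.85 FPKM with ATRA, against 2.54, 2.12 and 3.20 FPKM with vehicle (log2 change 1.13 ± 0.15 SE, adjusted p = 4.98e-04). The TEAD factors themselves diverged, with 38.5, 39.8 and 35.1 FPKM with ATRA and 23.5, 18.9 and 20.6 FPKM with vehicle for Tead1 (log2 change 0.82 ± 0.11 SE, adjusted p = 4.19e-04) and 11.7, 12.2 and 15.7 FPKM with ATRA and 27.2, 21.8 and 25.3 FPKM with vehicle for Tead4 (log2 change -0.86 ± 0.13 SE, adjusted p = 0.00124).

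FGF signalling genes, which drive embryonic stem cells toward differentiation through ERK, were mixed, as 7 of 28 tested members rose and 4 fell (median log2 change 0.10), with 13 and 8 in the paired test. The ligand gene Fgf4 had 19.8, 29.96 and 22.2 FPKM with ATRA, against 70.02, 82.4 and 57.6 FPKM with vehicle (log2 change -1.51 ± 0.15 SE, adjusted p = 7.21e-05). The receptor gene Fgfr2 had 3.85, 2.09 and 3.54 FPKM with ATRA, against 0.940, 0.821 and 0.950 FPKM with vehicle (log2 change 1.10 ± 0.16 SE, adjusted p = 9.75e-04). In the LIF and cytokine list 5 of 21 tested members rose and 5 fell (median log2 change 0.02, or -0.06 with median-of-ratios scaling). Its counts were 10 and 8 in the paired test and 2 and 7 with median-of-ratios scaling, with 3 to 6 called in all when ATRA library D or G or vehicle library D or F was left out. Socs2, a feedback inhibitor of cytokine receptors, had 10.3, 9.11 and 7.67 FPKM with ATRA, against 23.2, 17.6 and 24.7 FPKM with vehicle (log2 change -1.18 ± 0.14 SE, adjusted p = 2.33e-04). Notch genes stood under the shares of all genes, as 1 of 25 tested members rose and 1 fell (median log2 change -0.01), with 7 and 5 in the paired test, with 1 called in all when ATRA library D or G or vehicle library D or G was left out.

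Genes of G protein and cyclic AMP signalling, which relay hormones at the cell surface, had 16 of 72 tested members that rose and 2 that fell (median log2 change 0.22). Counts came to 38 and 15 in the paired test, 14 and 4 with median-of-ratios scaling, 8 and 2 without ATRA library D and 9 and 2 without vehicle library G. F2r, the thrombin receptor PAR1, had 75.5, 81.1 and 81.7 FPKM with ATRA, against 37.9, 42.2 and 42.8 FPKM with vehicle (log2 change 0.94 ± 0.14 SE, adjusted p = 9.24e-04). Rgs10, which turns off G alpha subunits, had 6.71, 5.38 and 4.88 FPKM with ATRA, against 2.56, 1.21 and 1.33 FPKM with vehicle (log2 change 1.33 ± 0.21 SE, adjusted p = 0.00137). Adcy1, an adenylyl cyclase, had 5.56, 4.86 and 4.77 FPKM with ATRA, against 3.40, 2.47 and 2.52 FPKM with vehicle (log2 change 0.68 ± 0.13 SE, adjusted p = 0.00383). These 3 genes were higher with ATRA in every pair, as all called rises were. In the list of PI3K, AKT, mTOR and RAS genes 9 of 70 tested members rose and 6 fell (median log2 change 0.11), with 31 and 17 in the paired test and 5 and 9 with median-of-ratios scaling. Gfra1, a GDNF receptor, had 5.69, 5.75 and 3.89 FPKM with ATRA, against 1.15, 1.38 and 0.826 FPKM with vehicle (log2 change 1.52 ± 0.15 SE, adjusted p = 5.92e-05). Ngfr, the neurotrophin receptor p75, had 4.58, 5.34 and 5.09 FPKM with ATRA, against 13.8, 13.2 and 13.5 FPKM with vehicle (log2 change -1.27 ± 0.18 SE, adjusted p = 7.40e-04).

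Guidance cues and receptors, known from axon and cell migration, had 15 of 47 tested members that rose and 6 that fell (median log2 change 0.25). The paired test and the D library bear on these counts, with 26 and 10 in the paired test and 10 and 3 without ATRA library D. Epha2, a receptor of ephrins, had 137, 97.7 and 162 FPKM with ATRA, against 43.6, 33.9 and 52.6 FPKM with vehicle (log2 change 1.58 ± 0.20 SE, adjusted p = 3.62e-04), with F lowest in both groups. The ephrin gene Efnb1 had 11.2, 9.30 and 9.18 FPKM with ATRA, against 2.94, 2.10 and 3.08 FPKM with vehicle (log2 change 1.56 ± 0.14 SE, adjusted p = 3.05e-05). Plxnd1, a semaphorin receptor, had 4.49, 3.81 and 3.57 FPKM with ATRA, against 1.61, 1.35 and 1.21 FPKM with vehicle (log2 change 1.05 ± 0.11 SE, adjusted p = 1.01e-04). Rgma, a repulsive guidance molecule, had 2.08, 1.30 and 1.97 FPKM with ATRA, against 0.485, 0.161 and 0.369 FPKM with vehicle (log2 change 1.05 ± 0.13 SE, adjusted p = 3.32e-04).

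For basement membrane and collagen genes, 16 of 39 tested members rose and 2 fell (median log2 change 0.30). The number depended on the test, with 26 and 5 in the paired test and 9 and 2 with median-of-ratios scaling, with 9 to 11 called in all when ATRA library D or vehicle library D or G was left out. Agrn (agrin), a heparan sulfate proteoglycan, had 44.9, 52.7 and 61.4 FPKM with ATRA, against 26.4, 27.8 and 23.8 FPKM with vehicle (log2 change 0.99 ± 0.12 SE, adjusted p = 1.88e-04). Col13a1, a transmembrane collagen, had 19.5, 24.7 and 14.04 FPKM with ATRA, against 5.71, 7.44 and 3.75 FPKM with vehicle (log2 change 1.63 ± 0.22 SE, adjusted p = 5.83e-04). Bgn (biglycan) had 4.17, 3.65 and 6.14 FPKM with ATRA, against 1.40, 1.29 and 1.56 FPKM with vehicle (log2 change 1.20 ± 0.17 SE, adjusted p = 7.32e-04). Nid1 (nidogen), which links laminin to collagen IV, went the other way, with 33.1, 33.7 and 26.4 FPKM with ATRA, against 51.9, 51.6 and 50.99 FPKM with vehicle (log2 change -0.72 ± 0.09 SE, adjusted p = 3.90e-04). Enzymes and core proteins of glycosaminoglycans had 10 of 40 tested members that rose and 0 that fell (median log2 change 0.27), with 27 and 3 in the paired test. Gpc1 (glypican 1) had 15.4, 11.7 and 19.203 FPKM with ATRA, against 7.33, 5.32 and 7.60 FPKM with vehicle (log2 change 1.07 ± 0.17 SE, adjusted p = 0.00130). Chst11, a chondroitin sulfotransferase, had 3.67, 3.03 and 2.91 FPKM with ATRA, against 1.25, 1.04 and 1.08 FPKM with vehicle (log2 change 0.98 ± 0.13 SE, adjusted p = 4.93e-04). Collagen needs chaperones of the endoplasmic reticulum, and in the list of chaperones and unfolded protein response genes 10 of 56 tested members rose and 1 fell (median log2 change 0.18), with 33 and 5 in the paired test and 3 and 3 with median-of-ratios scaling, with 4 to 7 called in all when ATRA library D or G or vehicle library D, F or G was left out. Serpinh1 (HSP47), the collagen chaperone, had 136, 142 and 120.5 FPKM with ATRA, against 59.4, 69.5 and 46.6 FPKM with vehicle (log2 change 1.18 ± 0.17 SE, adjusted p = 6.55e-04).

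Integrins and focal adhesion genes had 10 of 33 tested members that rose and 2 that fell (median log2 change 0.12), with 16 and 6 in the paired test. Parva (parvin), which ties integrins to actin, had 9.26, 9.17 and 9.71 FPKM with ATRA, against 3.08, 3.47 and 2.80 FPKM with vehicle (log2 change 1.34 ± 0.11 SE, adjusted p = 1.81e-05). Zyx (zyxin) had 14.7, 15.6 and 14.9 FPKM with ATRA, against 9.19, 8.47 and 8.29 FPKM with vehicle (log2 change 0.73 ± 0.08 SE, adjusted p = 1.63e-04). Actomyosin genes had 14 of 52 tested members that rose and 4 that fell (median log2 change 0.19), with 27 and 14 in the paired test, 12 and 8 with median-of-ratios scaling and 10 and 1 without ATRA library D. Rhob, a small GTPase of the actin cytoskeleton, had 15.7, 20.8 and 15.7 FPKM with ATRA, against 5.09, 9.58 and 5.14 FPKM with vehicle (log2 change 1.31 ± 0.20 SE, adjusted p = 0.00104). Csrp2, a LIM domain protein, had 103, 117 and 98.02 FPKM with ATRA, against 194, 200.3 and 205 FPKM with vehicle (log2 change -0.91 ± 0.09 SE, adjusted p = 8.21e-05). Cadherins and cell junction genes were split, as 7 of 54 tested members rose and 10 fell (median log2 change 0.12), with 23 and 20 in the paired test and 5 and 5 without ATRA library D. Dsc2 (desmocollin 2), a desmosomal cadherin, had 8.05, 8.85 and 6.73 FPKM with ATRA, against 1.504, 2.02 and 1.20 FPKM with vehicle (log2 change 1.79 ± 0.15 SE, adjusted p = 1.93e-05). Cldn4, a claudin of tight junctions, had 20.3, 25.8 and 17.6 FPKM with ATRA, against 53.98, 59.4 and 49.7 FPKM with vehicle (log2 change -1.33 ± 0.18 SE, adjusted p = 5.79e-04). In the list of keratins, annexins and S100 proteins, 6 of 32 tested members rose and 5 fell (median log2 change -0.01), with 12 and 11 in the paired test. Krt17 had 4.30, 7.86 and 10.4 FPKM with ATRA, against 24.999, 30.05 and 29.6 FPKM with vehicle (log2 change -1.84 ± 0.28 SE, adjusted p = 0.00106). Lgals3 (galectin 3) had 3.80, 7.45 and 3.56 FPKM with ATRA, against 20.1, 22.9 and 14.7 FPKM with vehicle (log2 change -1.81 ± 0.24 SE, adjusted p = 5.27e-04). Anxa3 had 8.62, 9.80 and 9.87 FPKM with ATRA, against 3.21, 4.58 and 4.03 FPKM with vehicle (log2 change 1.09 ± 0.17 SE, adjusted p = 0.00120). The list held strong changes both ways. Among extracellular proteases and inhibitors 10 of 39 tested members rose and 5 fell (median log2 change 0.25), with 20 and 8 in the paired test. Timp2, an inhibitor of matrix metalloproteases, had 10.8, 9.52 and 10.6 FPKM with ATRA, against 3.51, 3.27 and 3.07 FPKM with vehicle (log2 change 1.40 ± 0.13 SE, adjusted p = 4.32e-05). Adam23, a membrane protein of the ADAM family, had 24.9, 21.4 and 22.4 FPKM with ATRA, against 48.9, 36.7 and 47.8 FPKM with vehicle (log2 change -0.92 ± 0.11 SE, adjusted p = 2.64e-04).

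In the joint list of interferon and antigen presentation genes 17 of 39 tested members rose and 4 fell (median log2 change 0.12), with 19 and 9 in the paired test. Irf1, a transcription factor of the interferon response, had 30.2, 26.4 and 33.2 FPKM with ATRA, against 15.2, 16.5 and 14.9 FPKM with vehicle (log2 change 0.90 ± 0.10 SE, adjusted p = 1.24e-04). Raet1b, a retinoic acid early transcript that encodes a ligand of the NKG2D receptor, had 8.46, 7.44 and 5.76 FPKM with ATRA, against 0.999, 1.26 and 1.06 FPKM with vehicle (log2 change 1.95 ± 0.18 SE, adjusted p = 4.27e-05), with the reserve that Raet1 genes are near copies of each other. The rises included the class I genes H2-K1 and H2-D1 (log2 change 1.51 and 0.89) and the proteasome activator genes Psme1 and Psme2 (log2 change 0.36 and 0.75). Ifitm1 and Xaf1 went down. Ifitm1 had 40.5, 66.7 and 40.4 FPKM with ATRA, against 172, 196 and 189.5 FPKM with vehicle (log2 change -1.93 ± 0.27 SE, adjusted p = 6.15e-04). Xaf1, an interferon-induced inhibitor of XIAP, had 4.21, 5.46 and 6.11 FPKM with ATRA, against 14.5, 17.9 and 16.5 FPKM with vehicle (log2 change -1.48 ± 0.18 SE, adjusted p = 2.71e-04). Class I genes resemble each other, so the split of reads between them is uncertain. H2-K1, H2-D1, Psme1 and Psme2 were chosen after their values were seen.

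In glycolysis and glucose uptake 6 of 44 tested members rose and 2 fell (median log2 change 0.02, or -0.08 with median-of-ratios scaling), with 12 and 11 in the paired test, 5 and 0 without ATRA library D and 5 and 0 without vehicle library D. Beside Slc2a1, the rises included fructose bisphosphatases, which work in the opposite direction to glycolysis, and an enzyme of glycogen synthesis. Fbp2, the muscle form, had 15.6, 12.5 and 19.8 FPKM with ATRA, against 2.25, 2.38 and 2.42 FPKM with vehicle (log2 change 2.32 ± 0.31 SE, adjusted p = 5.36e-04). Fbp1, the liver form, had 1.98, 2.27 and 2.18 FPKM with ATRA and 0.204, 0.234 and 0.194 FPKM with vehicle (log2 change 1.38 ± 0.12 SE, adjusted p = 2.14e-05). Gbe1, the glycogen branching enzyme, had 3.67, 3.52 and 3.03 FPKM with ATRA, against 1.41, 1.84 and 1.67 FPKM with vehicle (log2 change 0.74 ± 0.12 SE, adjusted p = 0.00143). Of hypoxia response genes, 8 of 28 tested members rose and 1 fell (median log2 change 0.36), with 19 and 3 in the paired test and 4 and 2 with median-of-ratios scaling, with 5 called in all when ATRA library D or G or vehicle library D or F was left out. Its rises included Bhlhe40, Car12 and Ero1l (log2 change 1.05, 0.80 and 0.51). The 1 member that fell was Ndrg1, a stress-induced gene. It had 5.07, 3.82 and 2.03 FPKM with ATRA, against 15.8, 9.03 and 12.5 FPKM with vehicle (log2 change -1.56 ± 0.25 SE, adjusted p = 0.00157). Serine, glycine, folate and methionine genes had 2 of 39 tested members that rose and 5 that fell (median log2 change -0.10), with 7 and 15 in the paired test, 1 and 7 with median-of-ratios scaling, 1 and 2 without ATRA library D and 2 and 2 without vehicle library D. Gldc, the glycine cleavage enzyme, had 34.3, 30.7 and 35.1 FPKM with ATRA, against 75.1, 56.8 and 61.2 FPKM with vehicle (log2 change -0.92 ± 0.20 SE, adjusted p = 0.0106). Folr1, the folate receptor, had 71.3, 96.4 and 84.4 FPKM with ATRA, against 36.6, 54.3 and 41.3 FPKM with vehicle (log2 change 0.92 ± 0.17 SE, adjusted p = 0.00419).

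Lipid genes had 13 of 66 tested members that rose and 4 that fell (median log2 change 0.08, or -0.01 with median-of-ratios scaling), with 27 and 18 in the paired test, 10 and 9 with median-of-ratios scaling, 7 and 2 without ATRA library D and 8 and 2 without vehicle library F. Fads3, a fatty acid desaturase, had 2.65, 2.11 and 3.05 FPKM with ATRA, against 0.633, 0.644 and 0.642 FPKM with vehicle (log2 change 1.13 ± 0.12 SE, adjusted p = 1.21e-04). Degs1, a desaturase of ceramide synthesis, had 53.5, 51.4 and 47.6 FPKM with ATRA, against 84.1, 70.1 and 89.2 FPKM with vehicle (log2 change -0.66 ± 0.10 SE, adjusted p = 0.00122). For cholesterol synthesis and uptake the unpaired and paired tests differed widely, as 1 of 34 tested members rose and 0 fell (median log2 change 0.31), with 19 and 3 in the paired test, 0 and 0 without ATRA library D and 0 and 0 without vehicle library D. Iron, zinc and copper genes had 8 of 43 tested members that rose and 2 that fell (median log2 change 0.18), with 22 and 10 in the paired test and 5 and 5 with median-of-ratios scaling, with 3 to 6 called in all when ATRA library D, F or G or vehicle library D was left out. Steap3, a ferrireductase, had 22.4, 17.4 and 30.96 FPKM with ATRA, against 4.24, 3.50 and 7.69 FPKM with vehicle (log2 change 2.02 ± 0.27 SE, adjusted p = 5.36e-04), and G was the highest in both groups. Among redox genes 7 of 58 tested members rose and 7 fell (median log2 change -0.01), with 19 and 18 in the paired test, 5 and 10 with median-of-ratios scaling and 6 and 3 without vehicle library D. Gpx8 and Sod2 moved apart, with 4.91, 4.28 and 4.57 FPKM with ATRA and 1.41, 1.08 and 1.34 FPKM with vehicle for Gpx8, a peroxidase of the endoplasmic reticulum (log2 change 1.30 ± 0.18 SE, adjusted p = 5.80e-04), and 24.7, 22.9 and 25.6 FPKM with ATRA and 43.1, 41.04 and 51.3 FPKM with vehicle for Sod2, the mitochondrial superoxide dismutase (log2 change -0.86 ± 0.10 SE, adjusted p = 1.70e-04). Respiratory chain subunits had 1 of 75 tested members that rose and 2 that fell (median log2 change 0.00), under the shares of all genes in the unpaired test. Counts were 7 and 19 in the paired test and 0 and 9 with median-of-ratios scaling. In both of these the falls were above the shares of all genes (22% and 8.4%). When ATRA library D or G or vehicle library D was left out, 0 to 1 were called in all. Citrate cycle genes had 4 of 38 tested members that rose and 1 that fell (median log2 change 0.04, or -0.06 with median-of-ratios scaling), with 11 and 10 in the paired test and 2 and 3 with median-of-ratios scaling, with 2 to 3 called in all when ATRA library D, F or G or vehicle library D or F was left out.

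Genes of ribosome production leaned downward by small amounts, and how many were called depended on the test and the scaling. In ribosome biogenesis 0 of 66 tested members rose and 8 fell (median log2 change -0.19), with 0 and 48 in the paired test, 0 and 4 without ATRA library D and 0 and 4 without vehicle library G. Utp14a, of the small subunit processome, had 20.3, 23.2 and 17.9 FPKM with ATRA, against 33.8, 32.6 and 32.3 FPKM with vehicle (log2 change -0.67 ± 0.13 SE, adjusted p = 0.00439). Tsr1, a factor of small subunit maturation, had 36.6, 37.2 and 35.04 FPKM with ATRA, against 44.8, 43.8 and 50.1 FPKM with vehicle (log2 change -0.34 ± 0.07 SE, adjusted p = 0.00917). Of cytosolic ribosomal protein genes, 0 of 87 tested members rose and 1 fell (median log2 change -0.15), with 2 and 64 in the paired test and 0 and 27 with median-of-ratios scaling, with 0 to 10 called in all when ATRA library D or F or vehicle library D, F or G was left out. In the unpaired test these falls were under the 5.14% of all tested genes. The call of Rpl8 was lost with quantile scaling (log2 change -0.06, adjusted p = 0.492). Lysosome and autophagy genes had 1 of 55 tested members that rose and 4 that fell (median log2 change -0.17), with 9 and 30 in the paired test, 1 and 11 with median-of-ratios scaling and 0 and 3 without ATRA library D. Tfeb, the transcription factor of lysosome genes, had 4.64, 7.69 and 7.18 FPKM with ATRA, against 18.2, 15.6 and 20.02 FPKM with vehicle (log2 change -1.35 ± 0.16 SE, adjusted p = 2.16e-04), its relative Mitf had 2.95, 3.61 and 2.75 FPKM with ATRA, against 7.56, 8.25 and 6.47 FPKM with vehicle (log2 change -1.04 ± 0.19 SE, adjusted p = 0.00325). Ulk1, the kinase that starts autophagy, had 19.8, 20.9 and 17.1 FPKM with ATRA, against 32.7, 32.1 and 29.5 FPKM with vehicle (log2 change -0.68 ± 0.09 SE, adjusted p = 3.94e-04). All 3 regulators were lower with ATRA in every pair, as all called falls were.

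Of histone lysine methyltransferases and demethylases 7 of 42 tested members rose and 0 fell (median log2 change 0.14), with 19 and 4 in the paired test, with 3 to 4 called in all when ATRA library D or F or vehicle library F or G was left out. Smyd2 (chr1:189880492-189922363), a lysine methyltransferase, had 72.3, 69.2 and 75.01 FPKM with ATRA, against 26.7, 24.1 and 27.5 FPKM with vehicle (log2 change 1.43 ± 0.10 SE, adjusted p = 4.86e-06). Suv39h1, which methylates histone H3 lysine 9, had 16.7, 16.9 and 20.3 FPKM with ATRA, against 9.96, 11.4 and 10.4 FPKM with vehicle (log2 change 0.71 ± 0.09 SE, adjusted p = 4.71e-04). DNA methylation and Polycomb genes were evenly split, as 8 of 47 tested members rose and 8 fell (median log2 change 0.08), with 20 and 13 in the paired test, 6 and 10 with median-of-ratios scaling, 5 and 5 without ATRA library D and 5 and 5 without ATRA library G. Dnmt3l, a cofactor of DNA methyltransferases, had 60.2, 66.1 and 71.1 FPKM with ATRA, against 145, 124 and 203 FPKM with vehicle (log2 change -1.22 ± 0.16 SE, adjusted p = 3.86e-04). Tet1, which oxidises methylcytosine, had 29.9, 29.96 and 28.8 FPKM with ATRA, against 53.9, 47.1 and 56.8 FPKM with vehicle (log2 change -0.81 ± 0.12 SE, adjusted p = 8.21e-04). Eed, a core subunit of Polycomb complex PRC2, had 67.7, 70.2 and 62.2 FPKM with ATRA, against 130.3, 117 and 112 FPKM with vehicle (log2 change -0.83 ± 0.11 SE, adjusted p = 5.61e-04). These 3 genes fell, although the list as a whole was split. In the list of remodelling and histone variant genes 3 of 68 tested members rose and 4 fell (median log2 change 0.08, or -0.01 with median-of-ratios scaling), with 28 and 12 in the paired test. Hmgn3, a nucleosome-binding protein, had 8.54, 10.7 and 7.28 FPKM with ATRA, against 2.89, 3.28 and 1.61 FPKM with vehicle (log2 change 1.47 ± 0.19 SE, adjusted p = 3.73e-04). Among nuclear receptors and coregulators 5 of 23 tested members rose and 4 fell (median log2 change 0.16), with 11 and 5 in the paired test, 2 and 4 with median-of-ratios scaling, 2 and 3 without ATRA library D and 2 and 3 without vehicle library D. Nrip1 (RIP140), a corepressor of nuclear receptors, had 10.7, 8.75 and 9.57 FPKM with ATRA, against 1.62, 1.47 and 1.46 FPKM with vehicle (log2 change 2.08 ± 0.13 SE, adjusted p = 2.51e-06). Nr5a2 (LRH-1), a nuclear receptor active in embryonic stem cells, had 6.51, 6.48 and 4.73 FPKM with ATRA, against 13.9, 12.5 and 12.98 FPKM with vehicle (log2 change -1.04 ± 0.12 SE, adjusted p = 1.44e-04).

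Genes of the cell cycle had 6 of 64 tested members that rose and 7 that fell (median log2 change -0.02), with 18 and 22 in the paired test and 5 and 10 with median-of-ratios scaling, with 6 to 8 called in all when ATRA library D or G or vehicle library D, F or G was left out. Mycn, a growth-promoting transcription factor, had 9.94, 11.1 and 11.9 FPKM with ATRA, against 34.98, 35.7 and 31.7 FPKM with vehicle (log2 change -1.55 ± 0.15 SE, adjusted p = 4.16e-05). Cdkn2a, a cell cycle inhibitor locus, had 37.7, 39.8 and 42.998 FPKM with ATRA, against 28.7, 28.2 and 27.6 FPKM with vehicle (log2 change 0.50 ± 0.09 SE, adjusted p = 0.00284). Mcm5, of the replicative helicase, had 118, 124 and 134 FPKM with ATRA, against 151, 157 and 169 FPKM with vehicle (log2 change -0.34 ± 0.07 SE, adjusted p = 0.00926). DNA repair genes had 0 of 61 tested members that rose and 4 that fell (median log2 change -0.09), with 6 and 21 in the paired test, with 1 to 2 called in all when ATRA library D or G or vehicle library D or G was left out. Genes of p53 and apoptosis had 8 of 50 tested members that rose and 1 that fell (median log2 change 0.11), with 21 and 9 in the paired test, 4 and 3 with median-of-ratios scaling, 3 and 0 without ATRA library D and 4 and 1 without vehicle library F. Genes with opposite roles in apoptosis were among the rises, with 239, 199.8 and 181 FPKM with ATRA and 131, 121 and 146 FPKM with vehicle for Mcl1, which protects cells from it (log2 change 0.63 ± 0.10 SE, adjusted p = 0.00168), and 14.03, 11.8 and 16.4 FPKM with ATRA and 7.30, 6.75 and 8.67 FPKM with vehicle for Bcl2l11 (BIM), which promotes cell death (log2 change 0.81 ± 0.14 SE, adjusted p = 0.00265).

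Regulators of later lineages were mostly low, and many members did not pass the filter of 1 FPKM in 3 of the 12 libraries. Of extraembryonic and definitive endoderm genes 7 of 25 tested members rose and 0 fell (median log2 change 0.44), with 17 and 4 in the paired test, 5 and 1 with median-of-ratios scaling, 4 and 0 without ATRA library D and 4 and 0 without vehicle library D. Gata6, a founder factor of primitive endoderm, had 11.3, 8.56 and 15.8 FPKM with ATRA, against 1.02, 1.52 and 0.701 FPKM with vehicle (log2 change 2.61 ± 0.24 SE, adjusted p = 3.86e-05). Sox7 had 6.40, 7.42 and 9.24 FPKM with ATRA, against 2.53, 2.54 and 1.88 FPKM with vehicle (log2 change 1.38 ± 0.17 SE, adjusted p = 3.05e-04). Only 23 of 48 neural and hindbrain regulators passed the filter, and 3 of 23 tested members rose and 3 fell (median log2 change 0.08), with 9 and 7 in the paired test. Mnx1, a motor neuron homeobox gene, had 2.67, 1.55 and 1.40 FPKM with ATRA and 0.402, 0.183 and 0.493 FPKM with vehicle (log2 change 1.06 ± 0.16 SE, adjusted p = 0.00119), and the neural cell adhesion gene Ncam1 had 4.88, 6.46 and 4.59 FPKM with ATRA and 9.46, 8.72 and 10.2 FPKM with vehicle (log2 change -0.74 ± 0.15 SE, adjusted p = 0.00715). Of 38 mesoderm and heart regulators 11 passed, and 4 of 11 tested members rose and 0 fell (median log2 change 0.51), with 7 and 1 in the paired test, with 1 to 2 called in all when ATRA library D or F or vehicle library D or G was left out. Nkx2-5, a heart homeobox gene, had 1.37, 1.41 and 1.27 FPKM with ATRA and 0.242, 0.654 and 0.416 FPKM with vehicle (log2 change 0.72 ± 0.12 SE, adjusted p = 0.00179). Trophoblast genes had 3 of 18 tested members that rose and 3 that fell (median log2 change 0.23), with 9 and 4 in the paired test and 2 and 1 without vehicle library D, and Esx1, a placental homeobox gene, had 4.41, 3.75 and 4.05 FPKM with ATRA, against 1.74, 1.25 and 1.47 FPKM with vehicle (log2 change 1.03 ± 0.11 SE, adjusted p = 8.41e-05). Germline genes had 5 of 34 tested members that rose and 1 that fell (median log2 change 0.12), with 14 and 7 in the paired test, 5 and 2 with median-of-ratios scaling, 2 and 1 without vehicle library D and 2 and 1 without vehicle library G. Rec8, a meiotic cohesin, had 24.5, 21.1 and 16.5 FPKM with ATRA, against 8.66, 8.10 and 5.78 FPKM with vehicle (log2 change 1.35 ± 0.20 SE, adjusted p = 9.24e-04) beside Stra8, while Prdm14, a factor of germ cells and of the naive state, had 5.94, 8.29 and 3.87 FPKM with ATRA, against 14.8, 24.9 and 20.7 FPKM with vehicle (log2 change -1.61 ± 0.22 SE, adjusted p = 6.17e-04). In the list of Sox, Fox, Tbx and Klf transcription factors 9 of 50 tested members rose and 7 fell (median log2 change 0.08), with 21 and 15 in the paired test. Of 25 genes of the state that resembles the 2-cell embryo, 20 were in the table and 1 passed the filter, and it was not called.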

How the data were processed

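RNA of 6 wild type and 6 receptor-deficient libraries was deposited by the authors as 1 gene-level table of FPKM, a unit read from the values and not named in a file header. The submitters' processing notes name STAR, Cufflinks and GRCm38, with versions and roles not given in the sources used here, and whether counting used strand is not stated, so genes that overlap or are antisense to each other are uncertain. Columns carry a group and a letter and were matched to groups by name. Of 23686 entries, 18 exact repeats were removed. FPKM is no count, so depth is unknown and no count test was run. Low values gave no shared step of 1 read for most genes (2.93% to 26.7% of low genes in a library), and no reads were recovered.

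Genes at 1 FPKM or more in at least 3 of the 12 libraries were tested (12362) on log2(FPKM + 1) with limma 3.58.1 in R 4.3.3, with 1 mean for each of 4 groups, 8 residual degrees of freedom, a mean-variance trend, robust moderation, and p-values adjusted by Benjamini-Hochberg at 0.05 over all tested genes. SE is the moderated standard error. Within wild type, deviations from the group mean correlated across genes between libraries of the same letter (0.376 for D, 0.697 for F and 0.673 for G) and less between different letters (-0.656 to 0.0124). The letters were therefore taken to pair the libraries, from the data and the column names, and the paired test adds the letter as a replicate block within genotype. Median-of-ratios scaling divides each library by the median ratio of its FPKM to the mean library on the log scale.

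Named genes are the 15 largest rises and falls with a mean of at least 5 FPKM in the higher group, called under both scalings and with no overlap, the 10 largest gains and losses in FPKM, up to 4 members of each list with the smallest adjusted p, the genes switched on or off with the highest means (up to 10 each), and members of the longest neighbour runs. Predicted genes, small RNA genes and repeated symbols were left out, and some named genes are not reported here. Exceptions are Rps27, Ccnd2, Apoe, Meis1, Dppa2, Gbx2 and the genes with a direct repeat in their promoter, beside those said to be chosen after their values were seen. The 65 lists, and the members named from them, were chosen with earlier results of these data known. Promoters are those of RefSeq (GRCm38.p6), gene positions those of GENCODE vM21 (GRCm38), and positions in the table were not used. Alternatives were another scaling, pseudocount, filter, set of libraries and fit, and leaving out each library in turn.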

Additional observations from a re-analysis of the deposited data

How the results depend on the processing

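Of 278 named genes that were called, 234 kept their call under all 15 alternatives and none reversed. Median-of-ratios scaling called 1038 genes lower. A pseudocount of 0.1 gave 493 called genes at least 2-fold higher and 209 at least 2-fold lower. The replicate block within genotype, which pairs libraries by letter, called 6887 genes (4171 higher, 2716 lower) and lost none of the 278 calls. The block in wild type libraries alone called 5695 (3520 higher, 2175 lower) and lost Klf2 (adjusted p = 0.0590) and Esrrb (adjusted p = 0.0517). The block with median-of-ratios scaling, chosen after seeing the data, called 6975 (2948 higher, 4027 lower). Leaving out 1 library gave 1189 to 1835 called genes, 837 to 1240 higher and 344 to 595 lower, with 232 to 287 at least 2-fold higher and 103 to 157 at least 2-fold lower. The lowest totals were those without ATRA library D (1189) and without vehicle library D (1312). Of the named calls, 28 were lost without ATRA library D, 22 without vehicle library D, 18 with wild type libraries only and at most 14 under any other alternative. List medians changed sign for 11 of 64 lists with median-of-ratios scaling, for 8 with quantile scaling and for at most 6 without 1 library. The causes were not tested. Depth is not known, so a level near 0 FPKM cannot be given a limit. Changes under 1.5-fold rest on small differences among 3 libraries a group.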

Other observations

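Surface, transport and stress genes outside the lists above held rises and falls side by side. In each pair of counts the rises come first. Over all tested genes 11.6% rose and 5.14% fell, or 33.7% and 22% in the paired test. Of amino acid, peptide and monocarboxylate transporters 10 of 42 tested members rose and 3 fell (median log2 change 0.13), with 19 and 10 in the paired test. Slc7a3, a cationic amino acid transporter, had 28.8, 56.2 and 30.2 FPKM with ATRA, against 99.8, 113 and 99.9 FPKM with vehicle (log2 change -1.48 ± 0.20 SE, adjusted p = 5.84e-04). Of glycosyltransferases of surface antigens 12 of 46 tested members rose and 5 fell (median log2 change 0.12), with 21 and 11 in the paired test, with 9 to 11 called in all when ATRA library D or G or vehicle library D or F was left out. Fut4, the fucosyltransferase linked to the antigen SSEA-1, had 3.40, 3.38 and 4.31 FPKM with ATRA, against 0.389, 0.598 and 0.432 FPKM with vehicle (log2 change 1.67 ± 0.11 SE, adjusted p = 2.51e-06). Ion channel genes had 10 of 43 tested members that rose and 4 that fell (median log2 change 0.12), with 19 and 9 in the paired test, 8 and 6 with median-of-ratios scaling, 3 and 3 without ATRA library D and 5 and 3 without vehicle library F. Cacng7, a calcium channel subunit, had 92.2, 88.8 and 116 FPKM with ATRA, against 52.5, 46.9 and 62.9 FPKM with vehicle (log2 change 0.86 ± 0.14 SE, adjusted p = 0.00150). Atp2a3, a calcium pump, had 8.85, 11.3 and 7.29 FPKM with ATRA, against 24.6, 25.1 and 15.7 FPKM with vehicle (log2 change -1.16 ± 0.21 SE, adjusted p = 0.00302). Of vesicle release genes 7 of 40 tested members rose and 3 fell (median log2 change 0.20), with 19 and 8 in the paired test, with Syt7, a calcium sensor of exocytosis, at 15.2, 11.1 and 15.99 FPKM with ATRA and 5.47, 4.49 and 5.85 FPKM with vehicle (log2 change 1.26 ± 0.14 SE, adjusted p = 1.49e-04). Among imprinted genes 3 of 33 tested members rose and 4 fell (median log2 change 0.00), with 12 and 7 in the paired test, 3 and 1 without vehicle library D and 3 and 1 without vehicle library G, and Ndn (necdin) had 12.2, 12.2 and 11.9 FPKM with ATRA, against 4.19, 4.71 and 4.002 FPKM with vehicle (log2 change 1.31 ± 0.13 SE, adjusted p = 7.65e-05). Cilia genes had 5 of 57 tested members that rose and 3 that fell (median log2 change 0.07, or -0.01 with median-of-ratios scaling), with 16 and 12 in the paired test. Of circadian and immediate early genes 6 of 37 tested members rose and 3 fell (median log2 change -0.12), with 11 and 10 in the paired test and 4 and 4 with median-of-ratios scaling, with 4 to 5 called in all when ATRA library D or vehicle library D or G was left out. Klf15 had 14.5, 13.3 and 12.2 FPKM with ATRA, against 36.3, 31.6 and 42.6 FPKM with vehicle (log2 change -1.39 ± 0.19 SE, adjusted p = 5.08e-04). Bhlhe40, a repressor of the clock, had 67.2, 70.3 and 48.8 FPKM with ATRA, against 27.9, 27.1 and 32.4 FPKM with vehicle (log2 change 1.05 ± 0.16 SE, adjusted p = 0.00126).

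Large families were also counted by their names. Called in either direction were 8.41% of numbered Zfp genes, 22.8% of solute carriers and 15.9% of Tmem genes, beside 16.7% of all tested genes. Of all tested genes 11.6% rose and 5.14% fell. These shares were 33.7% and 22% in the paired test, and 8.63% and 8.4% with median-of-ratios scaling. Of numbered Zfp zinc finger genes 16 of 309 tested members rose and 10 fell (median log2 change 0.05, or -0.03 with median-of-ratios scaling). Of solute carriers 29 of 215 tested members rose and 20 fell (median log2 change 0.05, or -0.02 with median-of-ratios scaling), and of Tmem genes 19 of 170 tested members rose and 8 fell (median log2 change 0.07, or -0.01 with median-of-ratios scaling). Under other settings the Zfp genes had 74 and 47 in the paired test and 9 and 18 with median-of-ratios scaling, with 12 to 16 called in all when ATRA library D or vehicle library D or G was left out. Solute carriers had 80 and 59 in the paired test, 24 and 27 with median-of-ratios scaling and 22 and 10 without vehicle library D, and Tmem genes had 59 and 32 in the paired test, 15 and 13 with median-of-ratios scaling, 11 and 3 without ATRA library D and 11 and 2 without vehicle library D.

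In the list of ATF4 and amino acid response genes 1 of 45 tested members rose and 1 fell (median log2 change -0.10), with 7 and 17 in the paired test, with 1 called in all when ATRA library D or F or vehicle library D was left out. Cytosolic heat shock genes had 3 of 37 tested members that rose and 2 that fell (median log2 change 0.05, or -0.05 with median-of-ratios scaling), with 10 and 8 in the paired test. Called in either direction were 4.44% of the ATF4 list and 13.5% of the heat shock list, beside 16.7% of all tested genes. Of complement, coagulation and serpin genes 5 of 24 tested members rose and 4 fell (37.5% called, median log2 change 0.08), with 11 and 8 in the paired test. Among genes of RNA binding, splicing choice and microRNA processing 5 of 64 tested members rose and 4 fell (median log2 change 0.04, or -0.03 with median-of-ratios scaling), with 18 and 16 in the paired test, with 3 to 5 called in all when ATRA library D or vehicle library D or G was left out.

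Several genes with large differences were not called in the unpaired test. Ccnd2, a cyclin of the G1 phase, had 9.21, 9.23 and 14.8 FPKM with ATRA and 2.05, 1.88 and 5.82 FPKM with vehicle (log2 change 1.60 ± 0.53 SE, adjusted p = 0.0617), and the paired test called it (adjusted p = 2.00e-06). Apoe, apolipoprotein E, had 169, 260.1 and 92.5 FPKM with ATRA and 554, 634 and 288 FPKM with vehicle (log2 change -1.54 ± 0.48 SE, adjusted p = 0.0510), and both the paired test (adjusted p = 1.10e-06) and median-of-ratios scaling (adjusted p = 0.0282) called it. Rps27, a ribosomal protein gene, had 3.44, 6.03 and 3.49 FPKM with ATRA and 90.03, 6.31 and 70.8 FPKM with vehicle (log2 change -2.80 ± 1.59 SE, adjusted p = 0.277), and was not called in the paired test (adjusted p = 0.152). These genes were chosen after their values were seen.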
